A study of Mus musculus with 12 samples.

Results

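Activated CD8 T cells grown with genipin and N-acetylcysteine (NAC) together were compared with cells grown with vehicle, 6 of the 12 libraries of the series. The genipin+NAC and vehicle groups, 3 libraries each, were chosen by their labels alone, and all genes that passed a filter on low counts (13636) were compared. The other 6 libraries, 3 with genipin alone and 3 with NAC alone, served to show where the combination differed from each compound. All 4 groups consisted of CD8 T cells of pmel-1 mice, in which a transgenic receptor directs T cells to a gp100 peptide on MHC class I, and all carried wild-type Ucp2. Each culture was stimulated through that receptor and then expanded in 10 ng/ml of IL-2 over 4 days. As stimulus the labels name either peptide or antibodies to CD3 and CD28 without saying which was used. They give no dose of either compound, name culture medium as the vehicle, and state neither age nor sex. Since nothing says that the 3 libraries of a group were separate animals or cultures, p-values reflect only how far these libraries spread, which may be technical.

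Genipin is a plant compound used as an inhibitor of Ucp2, a carrier of the inner mitochondrial membrane, and it also reacts with free amines and crosslinks proteins. NAC is a thiol that supplies cysteine for glutathione synthesis. Activated T cells take up glucose and run glycolysis even in oxygen, a state to which MYC and the hypoxia-inducible factor HIF-1 both contribute. HIF-1 alpha is hydroxylated by the EGLN enzymes and degraded in the presence of oxygen and iron. When stable it binds short elements with a CGTG core and activates genes of glucose transport, mitophagy and the EGLN enzymes themselves.

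Library totals lay between 23354971 and 31098648 expected counts with both compounds and between 24585360 and 29150867 with vehicle. Replicate 1 with both compounds stood apart from its group: the chi-square per degree of freedom of its counts was 7.01 against replicate 2 and 8.13 against replicate 3, where replicates 2 and 3 gave 2.08 and the other groups gave 2.21 to 2.96. The difference was spread over many genes in small steps. The median absolute log2 difference of replicate 1 from the mean of replicates 2 and 3 was 0.1, against 0.054 between replicates 2 and 3, and 23 of 9967 genes at 5 CPM (counts scaled to the library total) or more differed by over 1.5-fold, against 16 between replicates 2 and 3.

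**Figure D1:**
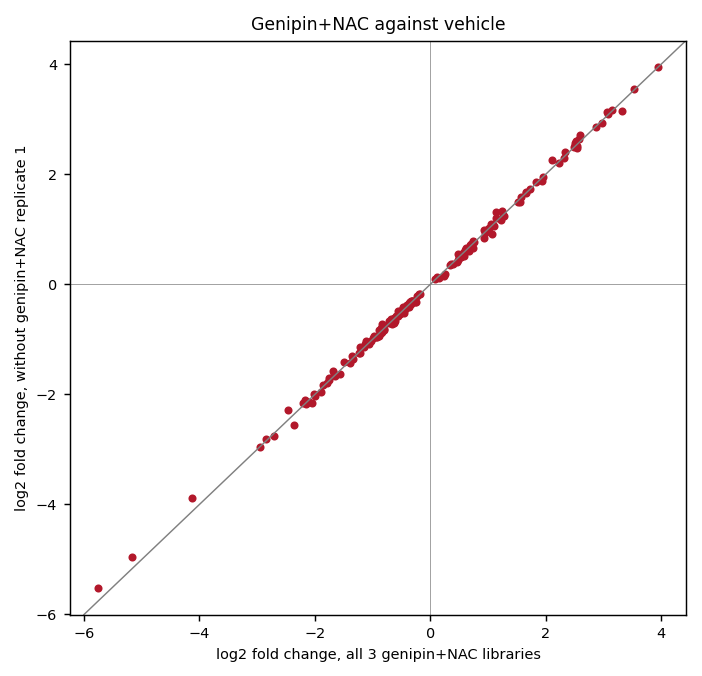
Each point is 1 of the 178 tested genes that the naming rule picked; the x axis is the log2 fold change of genipin+NAC against vehicle with all 3 genipin+NAC libraries, the y axis that without replicate 1, and the grey diagonal marks equal values. The points lie close to the diagonal, with a median absolute difference of 0.029, a largest one of 0.247 (Flt3), and no change of sign. The genes were picked with replicate 1 included, and both axes share all other libraries. Closeness and equal sign were therefore largely set in advance, and genes in which replicate 1 deviates most were not sought.

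With genipin and NAC 7826 of 13636 genes differed from vehicle (57.4%), 3891 higher (28.5%) and 3935 lower (28.9%), by edgeR's quasi-likelihood test (Benjamini-Hochberg adjusted p under 0.05). Of them, 2-fold or larger changes were found in 1083 genes (7.94%), 733 higher (5.38%) and 350 lower (2.57%). Without genipin+NAC replicate 1 the test called 7701 of 13905 genes (55.4%). Both with and without it 7162 genes were called, none of which changed direction, while 664 were called only with it and 539 only without it. Both fits share all other libraries. Against a test for a change beyond 1.5-fold, 1105 genes passed, 719 higher and 386 lower, so most calls were of small differences. By that test, which called 5.27% of all genes higher and 2.83% lower, fewer list members were called. Higher were 14 of 20 HIF targets, 8 of 16 genes of the list of inhibitory receptors and exhaustion and 4 of 22 glycolysis genes. Lower were 13 of 26 interferon response, 8 of 24 effector and 7 of 18 MYC and ribosome biogenesis genes. Lower were also 1 of 25 cholesterol and 1 of 24 DNA replication genes, near the share of all genes, and 0 of 22 mitosis, 20 aminoacyl tRNA synthetase or 20 nuclear-encoded respiratory chain genes were called in either direction. Below, "rose" and "fell" are used of genes that passed the first of these tests, values given as a number ± SE without a unit are log2 fold changes, of genipin+NAC against vehicle unless another group is named, with 3 libraries per group, and counts of list members are to be read against the 28.5% and 28.9% of all genes called higher and lower. The libraries of the 2 groups did not overlap for 60.7% of all genes. Genes named as largest rises or falls, such as Usp18, Gzma, Ccr2, Ccl9, Tcf7 and Kit, had to meet this condition. For them the lack of overlap is part of the choice and not a further result. The median log2 fold change of all genes tested was 0 to 2 decimals, with quartiles of -0.24 and 0.28.

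The cells carried the markers of CD8 T cells in both groups. The 12 markers summed to 7864 to 8156 CPM with both compounds, against 6521 to 6677 CPM with vehicle, and 9 of 12 rose while none fell, led by the coreceptor chains Cd8b1 (0.60 ± 0.029) and Cd8a (0.51 ± 0.026). Many defining markers of other cell types were at or near 0. Of 10 macrophage markers, Adgre1, C1qb and Fcgr1 had 0 counts in all 6 libraries, Csf1r, Lyz2, C1qa and Mrc1 had at most 3, and the 2 that were tested, Itgam and Cd14, rose (Cd14 lost its call without genipin+NAC replicate 1), so that the list summed to 40.4 to 43.4 CPM with both compounds, against 8.89 to 11.4 CPM with vehicle. Of 11 markers of mast cells, basophils or neutrophils, 3 were tested: Kit and Cpa3 rose and Mcpt8 fell, and the sum was 252 to 256 CPM with both compounds, against 28.1 to 31.3 CPM with vehicle, while S100a8, S100a9 and Elane were at 0 and Fcer1a, Ms4a2, Gata2 and Mpo at no more than 3 counts. Of 10 B cell markers 4 were tested and Ighm, Ighd and Cd79b rose, with sums of 160 to 161 CPM with both compounds, against 42.8 to 43.9 CPM with vehicle. The B cell genes Ms4a1 and Pax5 were at 0, and Cd79a and Fcer2a at no more than 3 counts. Of 9 dendritic cell markers 6 were tested, H2-Ab1 and Itgax rose and Flt3 and Cd74 fell, with sums of 88.4 to 94.7 CPM with both compounds and 46.1 to 47.9 CPM with vehicle. Natural killer markers summed to 109 to 115 CPM with both compounds and 108 to 113 CPM with vehicle, with 2 of 6 higher and 1 lower. CD4 T cell markers summed to 575 to 631 CPM with both compounds and 375 to 384 CPM with vehicle, nearly all of it Ctla4, which activated CD8 cells also make. The 1 erythroid gene tested, Hba-a1, was below 1 CPM in both groups. In bulk RNA, fewer cells of a type and less RNA per cell cannot be told apart, and the part of the rarer markers in the results was not tested.

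Upstream sequences of 9 genes are shown first, because some of the gene lists were drawn around factors that read short elements in such sequences. Each is a stretch of 120 bases out of the 250 before the annotated start, from RefSeq on GRCm38.p6, printed on the gene's strand. List members were taken by smallest adjusted p against vehicle, and only if their upstream bases held the element searched. The stretch with most matches is printed. Ndrg1, Ero1l and Slc2a3, and in the interferon list Usp18 and Ifi27l2a, ranked ahead of some genes shown but were passed over under this rule. The printed sequences therefore do not show how common an element is. The lists' genes were matched to windows by symbol, 17 of 21 for HIF targets, 21 of 22 for glycolysis, 18 of 26 for the interferon response and 14 of 16 for metallothioneins and zinc. Capitals mark the motif searched. For HIF targets and glucose genes this is the hypoxia element, NACGTG or NGCGTG on either strand, where N is any base; its form CACGTG is also the E-box to which MYC binds. Egln3 (chr12:54204005-54204124, minus strand) and Egln1 (chr8:124949290-124949409, minus strand) encode oxygen-sensing hydroxylases, Bnip3 (chr7:138909534-138909653, minus strand) a mitophagy receptor, Pfkfb3 (chr2:11502116-11502235, minus strand) a kinase that makes the activator of phosphofructokinase, and Slc16a3 (chr11:120948947-120949066, plus strand) the lactate exporter MCT4.
Egln3: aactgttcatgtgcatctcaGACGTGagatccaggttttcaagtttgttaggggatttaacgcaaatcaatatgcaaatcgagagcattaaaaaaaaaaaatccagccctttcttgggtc
Egln1: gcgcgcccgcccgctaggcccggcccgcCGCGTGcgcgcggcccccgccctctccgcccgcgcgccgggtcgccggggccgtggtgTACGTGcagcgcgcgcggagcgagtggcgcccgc
Bnip3: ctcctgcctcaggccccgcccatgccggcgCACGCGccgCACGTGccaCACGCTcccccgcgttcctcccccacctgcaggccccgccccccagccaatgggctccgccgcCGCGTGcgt
Pfkfb3: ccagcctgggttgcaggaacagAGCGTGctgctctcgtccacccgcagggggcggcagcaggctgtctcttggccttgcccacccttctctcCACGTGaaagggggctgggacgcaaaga
Slc16a3: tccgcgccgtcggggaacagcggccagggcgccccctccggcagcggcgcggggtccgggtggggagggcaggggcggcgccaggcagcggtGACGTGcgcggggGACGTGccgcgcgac

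Of the 300-base windows (250 bases before the start to 50 after it) of the HIF list, 80.8% held this element, as did 81.8% of those of the glycolysis list, against 43.7% of all 32851 windows. A list drawn around a factor's known targets holds its element more often by the way it was made. Such an excess is not a result of the treatment. For genes of the interferon response the motif was a pair of GAAA repeats separated by any 2 bases, on either strand, the core of the element read by interferon-regulated factors, and 50% of their windows held it, against 3.44% of all windows. Isg15 (chr4:156200826-156200945, minus strand) encodes a ubiquitin-like protein, and Oas3 (chr5:120777670-120777789, minus strand) and Oas1a (chr5:120907526-120907645, minus strand) encode enzymes that sense double-stranded RNA.
Isg15: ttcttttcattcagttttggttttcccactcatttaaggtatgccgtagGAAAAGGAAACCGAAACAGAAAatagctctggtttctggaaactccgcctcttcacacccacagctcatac
Oas3: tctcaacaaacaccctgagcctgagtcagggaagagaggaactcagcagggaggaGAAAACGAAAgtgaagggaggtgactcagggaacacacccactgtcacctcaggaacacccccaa
Oas1a: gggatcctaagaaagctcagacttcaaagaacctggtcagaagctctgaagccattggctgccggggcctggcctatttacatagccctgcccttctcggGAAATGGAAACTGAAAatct

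The metal response element, TGCGCNC or TGCACNC on either strand, was in 50% of the windows of the metallothionein and zinc list, against 25.7% of all windows. It is read by the zinc sensor MTF-1, and the upstream bases of Mt2 (chr8:94172386-94172505, plus strand), a metallothionein, held 2 copies. A match is a description of letters and not of binding. Elements searched for the other lists were also above the share of all windows, whatever the list's direction. Examples are 28.6% against 3.95% for the ATF4 stress response, 72.2% against 17.9% for mitosis genes and 5% against 1.24% for cholesterol genes. The excess is therefore not particular to lists that moved in one direction.
Mt2: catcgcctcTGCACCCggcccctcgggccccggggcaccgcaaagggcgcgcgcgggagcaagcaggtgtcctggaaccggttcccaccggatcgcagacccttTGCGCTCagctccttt

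Ucp2 itself, the target for which genipin is used, was abundant in every library (ENSMUSG00000033685.13, chromosome 7, 100493337 to 100502020, mm10). It had 505, 562 and 563 CPM with both compounds, against 766, 757 and 736 CPM with vehicle. All 3 libraries with both compounds lay below all 3 with vehicle, a log2 fold change of -0.47 ± 0.034 (edgeR quasi-likelihood test, Benjamini-Hochberg adjusted p = 1.75e-10). With single compounds Ucp2 averaged 624 CPM with genipin and 484 CPM with NAC, both below vehicle. The combination was lower than genipin (-0.20 ± 0.034) and higher than NAC (0.17 ± 0.035). Transcript levels do not measure inhibition of the protein. Ucp1 had 0 counts in all 6 libraries, and Ucp3 had 3 to 7 counts with both compounds and 1 to 4 with vehicle and was not tested. Of the 11 mitochondrial carriers tested 8 fell and none rose, among them the phosphate carrier Slc25a3 (-0.38 ± 0.029).

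HIF targets rose together. All 20 tested members of the list of HIF targets outside glycolysis were higher with both compounds, with a median of 1.02, and Adm was too low to test. The hydroxylase gene Egln3 (ENSMUSG00000035105.5, chromosome 12, 54178981 to 54203860) had 447, 461 and 457 CPM with both compounds, against 140.2, 146 and 147 CPM with vehicle. Every genipin+NAC library lay above every vehicle library, and the log2 fold change was 1.66 ± 0.034 (edgeR quasi-likelihood test, adjusted p = 1.44e-19). Ndrg1 (ENSMUSG00000005125.13, chromosome 15, 66929318 to 66969640), a stress-responsive gene induced by hypoxia, had 315, 328 and 329 CPM with both compounds, against 106, 110.4 and 112 CPM with vehicle (1.56 ± 0.032). The endoplasmic reticulum oxidase Ero1l had 1851, 1675 and 1679 CPM with both compounds, against 603, 597 and 576 CPM with vehicle (1.55 ± 0.037). The groups did not overlap for either gene. Bnip3 (1.04 ± 0.036), the growth factor Vegfa (1.10 ± 0.045), the collagen prolyl hydroxylases P4ha1 (0.92 ± 0.034) and P4ha2 (1.46 ± 0.069), the pyruvate dehydrogenase kinase Pdk1 (0.87 ± 0.034) and Egln1 (1.01 ± 0.033) rose as well. The smallest rises of the list were those of Bnip3l (0.23 ± 0.029) and Higd1a (0.27 ± 0.052), a mitochondrial protein of the respiratory supercomplexes.

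Genes of glucose uptake, glycolysis and lactate export rose. Of 22 tested genes 19 rose and 1 fell, with a median of 0.36, and 20 rose without genipin+NAC replicate 1. The high-affinity glucose transporter Slc2a3 (ENSMUSG00000003153.10, chromosome 6, 122727809 to 122801640) had 860.3, 848 and 842 CPM with both compounds, against 257, 254 and 255 CPM with vehicle, a rise of 1.74 ± 0.027 with no overlap (edgeR quasi-likelihood test, adjusted p = 1.66e-21). Pfkfb3 had 133, 126 and 125 CPM with both compounds, against 54.9, 52.1 and 51.97 CPM with vehicle (1.27 ± 0.040). The lactate exporter Slc16a3 had 279, 303 and 310.4 CPM with both compounds, against 143, 146 and 142 CPM with vehicle (1.05 ± 0.037). For these 3 genes the lowest library with both compounds stood well above the highest with vehicle. The transporter Slc2a1 rose by 0.83 ± 0.038 and phosphofructokinase Pfkp by 0.60 ± 0.025, while Gapdh (0.12 ± 0.032), Pkm (0.10 ± 0.031) and Pgk1 (0.18 ± 0.024) rose little, and Ldha (0.030 ± 0.025) did not pass the test. The 1 gene that fell was Slc16a1 (-0.26 ± 0.044), the lactate transporter MCT1.

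The combination stood on the other side of vehicle from genipin alone for these genes. Against vehicle, the HIF list had a median of 1.02 with both compounds, -1.23 with genipin and 0.00 with NAC, and the glycolysis list 0.36, -0.63 and -0.06, in comparisons that share the vehicle libraries. Tested directly, all 20 HIF targets were higher with both compounds than with genipin (35.0% of all genes were), and 18 of 20 were higher and 1 lower than with NAC (26.6% of all genes were higher). Egln3 had 43.9, 43.8 and 48.6 CPM with genipin and 167, 163 and 166 CPM with NAC, so the genipin+NAC libraries exceeded all others (3.32 ± 0.038 against genipin and 1.46 ± 0.034 against NAC). Slc2a3 differed by 2.08 ± 0.027 from genipin and by 1.64 ± 0.026 from NAC. The transcript of the HIF-1 subunit Hif1a averaged 489 CPM with both compounds and 476 CPM with vehicle and did not pass the test (log2 fold change 0.04, edgeR quasi-likelihood adjusted p = 0.321); it was higher than with genipin (1.07) and lower than with NAC (-0.54).

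**Figure D2:**
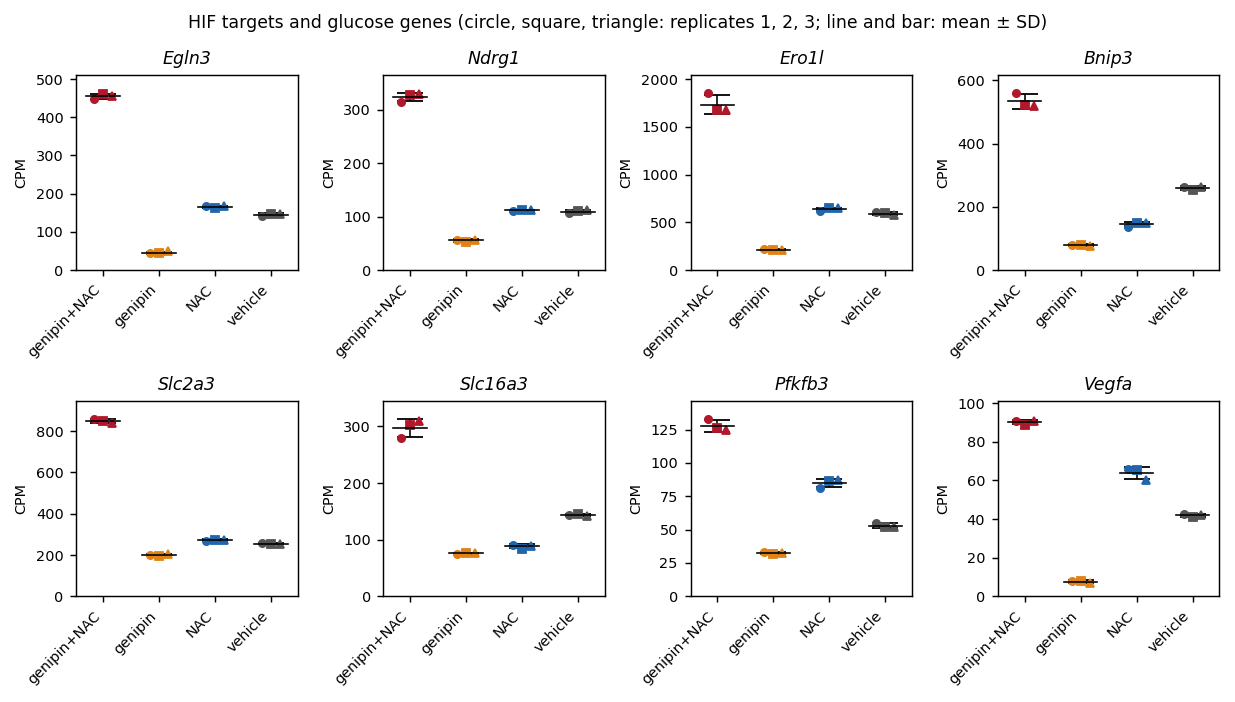
CPM (y axis, linear from 0) of 8 HIF targets and glucose genes in each of the 12 libraries; columns are genipin+NAC, genipin, NAC and vehicle, symbols are replicates, and lines with bars are mean ± SD of 3 libraries. The genipin+NAC libraries are the highest in all 8 panels, as for Egln3 at 455 ± 6.93 CPM with both compounds, against 144 ± 3.73 CPM with vehicle.

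Ribosome biogenesis genes fell. All 18 genes of the list of MYC and ribosome biogenesis were lower with both compounds, with a median of -0.65, against -0.11 with genipin alone and -0.12 with NAC alone, each relative to the same vehicle libraries. Nolc1 (ENSMUSG00000015176.11, chromosome 19, 46075863 to 46085530), a nucleolar chaperone of small ribonucleoproteins, had 53.3, 53.9 and 55.7 CPM with both compounds, against 107, 107 and 110.1 CPM with vehicle. Nop56 (ENSMUSG00000027405.16, chromosome 2, 130274430 to 130279313), a core protein of the complexes that methylate ribosomal RNA, had 117, 119 and 112 CPM with both compounds, against 221, 219 and 231 CPM with vehicle. Both were lower in every genipin+NAC library than in any vehicle library, with log2 fold changes of -0.99 ± 0.034 and -0.95 ± 0.033 (edgeR quasi-likelihood test, adjusted p = 8.86e-16 and 1.06e-15). Ddx21 (-0.84 ± 0.031), a helicase of ribosomal RNA transcription, Nop58 (-0.79 ± 0.036) and the polymerase I subunit Polr1b (-0.87 ± 0.050) fell too, as did Myc itself (-0.32 ± 0.039). Nolc1 was also lower than with genipin (-0.95 ± 0.034) and than with NAC (-1.0 ± 0.034). Pprc1, a coactivator of mitochondrial biogenesis and growth genes, had 24.4, 30.5 and 30.4 CPM with both compounds, against 61, 64.1 and 61.2 CPM with vehicle (-1.12 ± 0.063), and was -1.02 ± 0.064 against genipin and -1.38 ± 0.063 against NAC. Dnph1, a nucleotide hydrolase known as a MYC target, had 3.27, 3.69 and 3.50 CPM with both compounds, against 10.5, 11.6 and 11.1 CPM with vehicle (-1.66 ± 0.10).

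DNA replication genes fell as a group while mitosis genes were divided. Of 24 replication genes 23 were lower and none higher (median -0.28). Rrm2 (ENSMUSG00000020649.11, chromosome 12, 24708241 to 24714146), the regulated subunit of ribonucleotide reductase, had 137, 143 and 143 CPM with both compounds, against 201, 199 and 197 CPM with vehicle, with no overlap (-0.50 ± 0.030). Cyclin E, encoded by Ccne1, which drives entry into S phase, fell (-0.71 ± 0.053), as did the helicase subunits Mcm7 (-0.43 ± 0.033) and Mcm3 (-0.34 ± 0.027). Of 22 mitosis genes 10 fell and 3 rose, with Ccnb1 at -0.37 ± 0.032, Birc5 at -0.34 ± 0.039 and Bub1, a checkpoint kinase, higher at 0.23 ± 0.057. Mki67, the proliferation marker, was at 0.007 ± 0.037 and did not pass the test. All 22 mitosis genes were lower than with genipin (median -0.73) and lower than with NAC (median -0.72), where 34.3% and 26.5% of all genes were lower. All 24 replication genes were lower than with genipin. Against vehicle, all 22 mitosis genes were higher with genipin alone and with NAC alone, with a median of 0.65 in each. Of the 24 replication genes 22 were higher than vehicle with genipin, and 13 were higher and 4 lower with NAC. Of all 13636 genes 4080 were higher than vehicle with genipin and 4041 with NAC. These comparisons share the vehicle libraries.

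Interferon-response genes fell. Of 26 tested 24 fell and 1 rose (median -0.94), and without genipin+NAC replicate 1 the count was 23 and 1. Usp18 (ENSMUSG00000030107.10, chromosome 6, 121245906 to 121270917), a protease that removes Isg15 from proteins and dampens interferon signalling, had 5.68, 6.30 and 6.34 CPM with both compounds, against 28.01, 28.4 and 28.5 CPM with vehicle. The log2 fold change of -2.21 ± 0.074 left no overlap (edgeR quasi-likelihood test, adjusted p = 6.43e-16). Isg15 had 6.50, 6.47 and 6.21 CPM with both compounds, against 18.9, 21.2 and 20.4 CPM with vehicle (-1.66 ± 0.074). Oas3 (-0.97 ± 0.033) and the interferon-induced Ifi27l2a (-1.14 ± 0.043) fell as well. Ifit2, which binds foreign RNA, was the exception and rose by 0.58 ± 0.071. Relative to vehicle the median of the list was 0.03 with genipin and -1.10 with NAC. Directly, 23 of the 26 were lower than with genipin and none was higher (34.3% and 35.0% of all genes), while against NAC 15 were higher and 3 lower (26.6% and 26.5% of all genes).

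Granzyme transcripts fell while perforin did not pass the test. Of 24 tested effector genes 15 fell and 6 rose (median -0.26). Gzma (ENSMUSG00000023132.8, chromosome 13, 113093825 to 113100981), a tryptase of cytotoxic granules, had 255, 234 and 239 CPM with both compounds, against 978, 936 and 981 CPM with vehicle, a difference of -1.99 ± 0.032 without overlap (edgeR quasi-likelihood test, adjusted p = 2.77e-21). Gzmc had 976, 957 and 967 CPM with both compounds, against 1946, 1981 and 1982 CPM with vehicle (-1.03 ± 0.024). Gzmf (-1.14 ± 0.028) and Gzmb (-0.65 ± 0.021), a granzyme that triggers caspases, fell too. Gzmc to Gzmg lie in 1 cluster of close copies, among which reads can be split, so their single values are less certain. Perforin, Prf1, was at 0.020 ± 0.030. The high-affinity IL-2 receptor chain Il2ra (-1.05 ± 0.028) and the transcription factor Irf4 (-1.04 ± 0.032) fell, while Ifng (0.48 ± 0.035) and the T-box factor Tbx21 (0.52 ± 0.058) rose. Cx3cr1, a chemokine receptor of effector cells, was called higher on few reads (8 to 17 counts with both compounds, 1 to 4 with vehicle). Against NAC alone 18 of the 24 effector genes were higher and 3 lower, where 26.6% and 26.5% of all genes were. Against genipin 3 were higher and 16 lower, where 35.0% and 34.3% of all genes were.

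Most genes of the list of inhibitory receptors and exhaustion rose. Of 16 tested 13 rose and 2 fell, with a median of 0.68. The list also holds the costimulatory receptors Tnfrsf9, Tnfrsf4, Tnfrsf18 and Icos, so its counts are not of inhibitory receptors alone. Pdcd1 (ENSMUSG00000026285.7, chromosome 1, 94038305 to 94052553), which encodes PD-1, had 242, 255 and 258 CPM with both compounds, against 69.5, 71.9 and 70.1 CPM with vehicle. Its rise of 1.84 ± 0.035 separated the groups (edgeR quasi-likelihood test, adjusted p = 3.83e-20). Lag3, an inhibitory receptor for MHC class II, had 307, 336 and 327 CPM with both compounds, against 203, 204 and 196 CPM with vehicle (0.69 ± 0.037). The costimulatory receptor Tnfrsf9 (4-1BB) had 1256, 1326 and 1334 CPM with both compounds, against 782, 813 and 814 CPM with vehicle (0.70 ± 0.028), and the inhibitory receptor Ctla4 rose by 0.67 ± 0.038. Both groups kept apart for these 4 genes, with the genipin+NAC libraries above. The costimulatory receptor Icos (-0.48 ± 0.033) and the inhibitory receptor Tigit (-0.21 ± 0.045) fell. Pdcd1 was also higher than with genipin (1.08 ± 0.033) and than with NAC (2.51 ± 0.037). Tox had 43 to 47 counts with both compounds and 1 to 4 with vehicle.

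**Figure D3:**
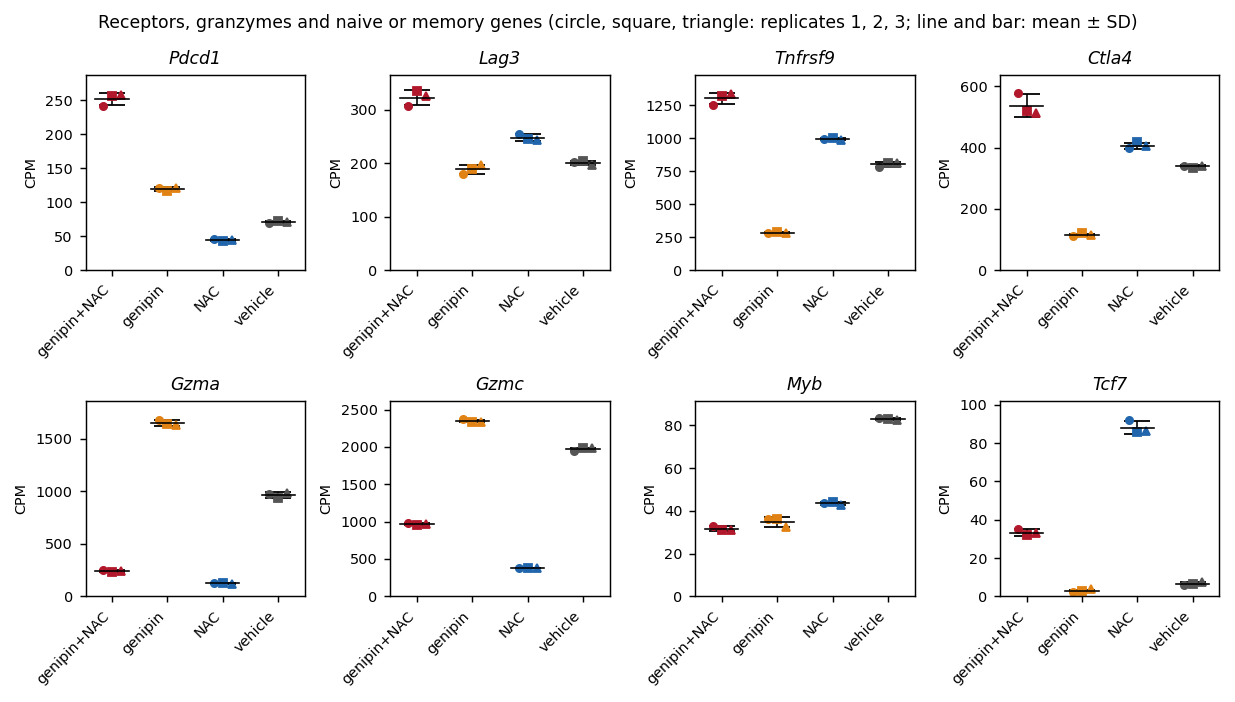
CPM (y axis, linear from 0) of 4 receptor genes (Pdcd1, Lag3, Tnfrsf9, Ctla4), 2 granzyme genes and 2 naive or memory genes (Myb, Tcf7) in each of the 12 libraries, drawn as in the plot of HIF targets. Pdcd1 averaged 252 ± 8.79 CPM with both compounds, against 70.5 ± 1.21 CPM with vehicle, and Gzma averaged 243 ± 11 CPM with both compounds, against 965 ± 25.3 CPM with vehicle.

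Naive and memory genes went in both directions, 9 of 20 tested higher and 9 lower. Tcf7 (ENSMUSG00000000782.15, chromosome 11, 52252371 to 52283014), the factor TCF-1 that maintains memory precursors, had 35.05, 31.9 and 33.1 CPM with both compounds, against 5.87, 6.34 and 7.61 CPM with vehicle (2.32 ± 0.086). Myb (ENSMUSG00000019982.15, chromosome 10, 21124935 to 21160984), a factor of stem-like memory cells, had 32.9, 30.9 and 31.01 CPM with both compounds, against 83.6, 82.8 and 82.7 CPM with vehicle (-1.40 ± 0.048). So the genipin+NAC libraries were above all vehicle libraries for one and below all for the other (edgeR quasi-likelihood test, adjusted p = 2.85e-15 for Tcf7 and 7.97e-16 for Myb). Tcf7 had 91.9, 86.02 and 86.4 CPM with NAC alone and 2.51, 2.99 and 3.57 CPM with genipin alone, which puts the combination between the compounds (-1.40 ± 0.066 against NAC, 3.45 ± 0.10 against genipin). Myb had 43.6, 44.1 and 42.6 CPM with NAC and 36.3, 36.3 and 32.3 CPM with genipin. The adhesion receptor Cd44 (-0.90 ± 0.039) fell, and Bcl6 (1.42 ± 0.19) and Bach2 (1.16 ± 0.064), transcriptional repressors, rose.

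Cytokine and chemokine genes fell more often than they rose, 11 against 5 of 18, with a median of -0.44. Ccl9 had 0.129, 0.343 and 0.196 CPM with both compounds, against 12.8, 12.5 and 11.5 CPM with vehicle; its genipin+NAC libraries held 3 to 8 counts, so the size of the fall (-5.76 ± 0.21) is uncertain. Lif, a cytokine of the IL-6 family, had 64.7, 61.8 and 66.8 CPM with both compounds, against 221, 229 and 222 CPM with vehicle (-1.80 ± 0.039), and Il10 fell (-1.75 ± 0.082). Xcl1, a chemokine that attracts cross-presenting dendritic cells, rose by 1.94 ± 0.16. Of 22 cytokine and chemokine receptors 12 rose and 9 fell: Ccr2, a receptor for monocyte chemokines, had 54.3, 52.1 and 50.9 CPM with both compounds, against 230.2, 235 and 236 CPM with vehicle (-2.16 ± 0.035) and Ccr1 fell (-1.56 ± 0.062), while Il10ra (0.94 ± 0.045), Ifngr1 (0.60 ± 0.027) and the shared chain Il6st (1.39 ± 0.069) rose. No groups overlapped for Lif, Ccr2 or Ccl9. Of 16 genes of T cell receptor signalling 12 rose and none fell, with Cd6 at 0.93 ± 0.046. Of 21 immediate early and ERK feedback genes 11 rose and 6 fell, with Nr4a1 at 1.24 ± 0.083, Nr4a3 at 1.25 ± 0.075 and Fos at -1.49 ± 0.11.

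Among genes that the naming rule could pick, with a mean of at least 5 CPM over the 6 libraries, Kit had the largest rise; some genes with few reads, such as Tox, had larger fitted values. Kit (ENSMUSG00000005672.12, chromosome 5, 75574916 to 75656722), the receptor for stem cell factor, had 237, 239 and 234 CPM with both compounds, against 15.4, 14.4 and 16 CPM with vehicle (3.95 ± 0.041; edgeR quasi-likelihood test, adjusted p = 9.80e-25). No vehicle library came near any genipin+NAC library. With single compounds it had 34.1, 34.2 and 33.4 CPM with genipin and 54, 55.1 and 53.99 CPM with NAC, and the combination was 2.80 ± 0.036 above genipin and 2.12 ± 0.034 above NAC. Nos2 (ENSMUSG00000020826.8, chromosome 11, 78920787 to 78960254), the inducible nitric oxide synthase, had 20.2, 21.8 and 24.3 CPM with both compounds, against 3.76, 3.96 and 3.43 CPM with vehicle (2.58 ± 0.10), and was 5.34 ± 0.14 above genipin and 2.21 ± 0.10 above NAC. Itgam, the CD11b integrin chain, had 40.9, 40.0 and 38.3 CPM with both compounds, against 8.24, 7.55 and 9.39 CPM with vehicle (2.23 ± 0.079). As given above, 8 of 10 macrophage markers and 8 of 11 markers of mast cells, basophils or neutrophils were too low to test. Zfp395, a zinc finger gene, had 124, 131 and 134 CPM with both compounds, against 22.6, 22.5 and 23.6 CPM with vehicle (2.50 ± 0.050). Spns2, a transporter of sphingosine 1-phosphate, rose by 2.49 ± 0.15. Kit, Nos2, Itgam, Zfp395 and Spns2 were the 5 genes with the largest excess over whichever of the other 3 groups was closest, each past the test against vehicle, genipin and NAC; the rule required that the groups not overlap.

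On the low side the same rule gave Ermn, Kmo, Tcrg-C4, Dnph1 and Pprc1. Ermn, a cytoskeletal protein known from oligodendrocytes, had 0.215, 0.257 and 0.490 CPM with both compounds, against 11.6, 12.8 and 12.2 CPM with vehicle; 5 to 15 counts per genipin+NAC library leave the size of its fall (-5.17 ± 0.21) uncertain. Kmo, an enzyme of the kynurenine pathway of tryptophan breakdown, had 3.96, 2.87 and 3.33 CPM with both compounds, against 13.9, 14.6 and 13.4 CPM with vehicle (-2.04 ± 0.10), with -1.23 ± 0.11 against genipin and -1.35 ± 0.11 against NAC. Tcrg-C4, a gamma chain constant gene of the T cell receptor, had 16.1, 17.2 and 14.5 CPM with both compounds, against 39.9, 38.3 and 43.1 CPM with vehicle (-1.35 ± 0.064); it has close copies among which reads can be split.

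**Figure D4:**
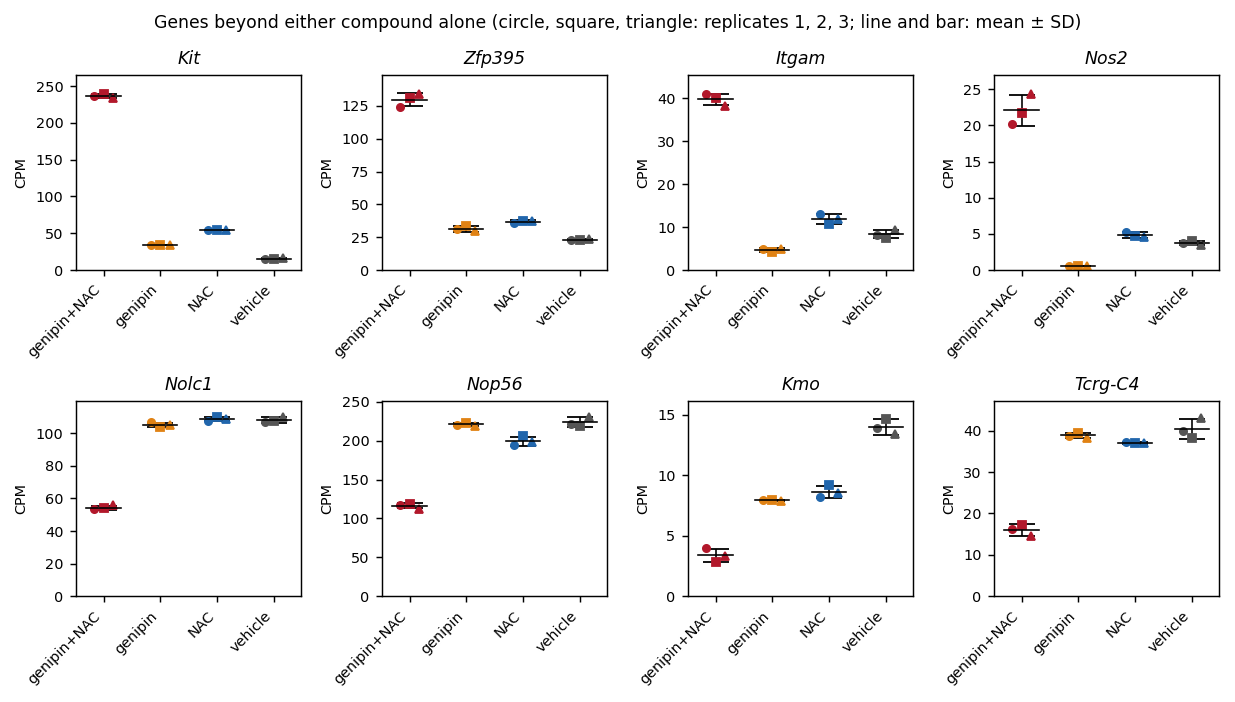
CPM (y axis, linear from 0) of 4 genes named for the largest excess over all other groups (Kit, Zfp395, Itgam, Nos2), 2 ribosome biogenesis genes (Nolc1, Nop56) and 2 of the genes named for lying furthest below all other groups (Kmo, Tcrg-C4), drawn as in the plot of HIF targets. Kit averaged 237 ± 2.52 CPM with both compounds, against 15.3 ± 0.809 CPM with vehicle, and Kmo averaged 3.39 ± 0.546 CPM with both compounds, against 13.98 ± 0.630 CPM with vehicle.

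Other large rises included the tetraspanin Cd9 (3.53 ± 0.14), the sialyltransferase St6gal1 (3.08 ± 0.15), the transglutaminase Tgm2 (2.87 ± 0.10), the proteoglycan Spock2 (2.60 ± 0.12), Samd3 (2.98 ± 0.12), Prrt1 (3.14 ± 0.16) and Nsg2 (2.55 ± 0.13). Cd9 had 18.9, 18.7 and 19.8 CPM with both compounds, against 1.23, 1.63 and 2.04 CPM with vehicle. Large falls included the cell cycle inhibitor locus Cdkn2a (-2.84 ± 0.069), the lipoprotein receptor Lrp1 (-2.71 ± 0.11), the granule protease Ctsg (-2.47 ± 0.18), the collagen gene Col18a1 (-2.09 ± 0.13), the sialyltransferase St3gal1 (-2.02 ± 0.045) and the syndecan Sdc3 (-1.86 ± 0.083). Cdkn2a, which encodes p16 and ARF, had 10.4, 11.1 and 11.4 CPM with both compounds, against 76.7, 82.2 and 78.1 CPM with vehicle. Against NAC alone, Cd9, Samd3, Tgm2 and St6gal1 were higher, Spock2 and Nsg2 lower, and Prrt1 did not pass the test. Of the falls, St3gal1 and Sdc3 were lower than with NAC and Cdkn2a higher, while Lrp1, Ctsg and Col18a1 did not pass. Of all genes, 2907 were called against vehicle but not against NAC, and 1611 against vehicle but not against genipin. Of the sialyltransferases named here, St6gal1 adds sialic acid to N-glycans and rose, and St3gal1 adds it to O-glycans and fell. Ighm, the constant region of IgM, had 154, 152 and 152 CPM with both compounds, against 38.4, 39.98 and 39.6 CPM with vehicle (1.96 ± 0.039).

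Nuclear genes of the respiratory chain and the TCA cycle were mostly lower, by small steps. Of 20 nuclear-encoded respiratory chain genes 16 fell and none rose (18 without genipin+NAC replicate 1), the median being -0.25. Cycs (-0.63 ± 0.047), the electron carrier cytochrome c, and Cox5a (-0.47 ± 0.037), a subunit of cytochrome oxidase, were among them. Cycs had 122, 101 and 105 CPM with both compounds, against 171, 169 and 166 CPM with vehicle, without overlap. Of 20 genes of the TCA cycle and pyruvate entry 14 fell and 2 rose, with Mdh2, a malate dehydrogenase, at -0.46 ± 0.033. Of 13 mitochondrially encoded genes 6 fell and 1 rose, 8 fell without genipin+NAC replicate 1 and 11 fell with no filter on low counts. They included mt-Cytb (-0.45 ± 0.038) and mt-Nd4 (-0.36 ± 0.038), and mt-Co1 rose by 0.14 ± 0.028. Of 13 fatty acid oxidation genes 4 fell, none rose and 9 did not pass the test (median -0.06), near the share of all genes called lower; Acadl (-0.85 ± 0.031), Etfb (-0.89 ± 0.053) and Cpt1a (-0.42 ± 0.033) were among the 4.

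Lipid synthesis genes fell as well. Of 25 cholesterol genes 21 fell and none rose. Relative to vehicle the list had a median of -0.28 with both compounds, -1.06 with genipin and 0.04 with NAC. Tested directly, 22 of the 25 were higher than with genipin and 2 lower (35.0% and 34.3% of all genes). Acat2 had 91.97, 94.8 and 97.3 CPM with both compounds, against 145, 141 and 143 CPM with vehicle (-0.59 ± 0.032), and was 1.55 ± 0.037 relative to genipin. Of 14 fatty acid synthesis genes 9 fell and 1 rose, with Fasn, the fatty acid synthase, at -0.71 ± 0.037, Scd1 at -0.63 ± 0.034 and Me1 at -0.93 ± 0.088. The 1 that rose, Acss2, did so by 0.11 ± 0.040 and lost the call in DESeq2.

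Metallothioneins, which bind zinc and copper and whose gene Mt2 is shown above with its metal response elements, fell. Mt2 (ENSMUSG00000031762.7, chromosome 8, 94172664 to 94173568) had 65.8, 71.05 and 72.5 CPM with both compounds, against 224, 243 and 238 CPM with vehicle, a log2 difference of -1.75 ± 0.041 with no overlap (edgeR quasi-likelihood test, adjusted p = 1.20e-18). Mt1 had 99.8, 120.1 and 118 CPM with both compounds, against 256, 267 and 264 CPM with vehicle (-1.22 ± 0.053) and Mt3 fell (-1.69 ± 0.14). Of the 16 metallothionein and zinc genes 8 fell and 3 rose, and the vesicular zinc transporter Slc30a7 was among the rises (0.36 ± 0.055). Of 24 genes of NRF2, glutathione and thioredoxin 13 fell and 4 rose, with the peroxiredoxin Prdx1 at -0.45 ± 0.032 and the pentose phosphate enzymes Tkt (-0.41 ± 0.031) and Taldo1 (-0.43 ± 0.035) lower, and Blvrb, a biliverdin reductase, higher (0.74 ± 0.062). Among 12 iron genes 5 fell and 2 rose. The transferrin receptor Tfrc had 130.4, 121 and 122 CPM with both compounds, against 189.5, 192 and 196 CPM with vehicle (-0.63 ± 0.035), the ferritin chain Fth1 fell (-0.52 ± 0.035), and Fbxl5, which targets an iron regulator for degradation, rose by 0.39 ± 0.040.

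Genes of the ATF4 stress response were split, 14 of 27 lower and 8 higher, with the serine synthesis enzyme Psat1 at -0.58 ± 0.031, the amino acid transporter Slc7a5 at -0.55 ± 0.040, Atf3 at -1.23 ± 0.054 and Stc2 at 1.01 ± 0.074. Relative to vehicle the list had a median of -0.25 with both compounds, -0.87 with genipin and 0.53 with NAC. The aminoacyl tRNA synthetases, which charge tRNAs, fell in 19 of 20 cases, with a median of -0.30 and Tars at -0.53 ± 0.037, and the other, Sars, rose by 0.085 ± 0.028. Of 15 heat shock chaperones 10 fell and 4 rose. Hsp90ab1 (-0.55 ± 0.022) and Hsp90aa1 (-0.66 ± 0.042) fell, and of the rises Hspb1 rested on 4 to 11 counts with both compounds and 0 to 2 with vehicle. Of 19 genes of the endoplasmic reticulum response 10 fell and 4 rose, with Sdf2l1 at -0.85 ± 0.058 and Dnajb9 at 0.53 ± 0.090.

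Survival genes were divided. Of 14 BCL2 family genes 6 rose and 6 fell. Bcl2l11, which encodes the killer protein BIM, had 66.2, 68.7 and 68.4 CPM with both compounds, against 21.7, 19.7 and 22.8 CPM with vehicle (1.66 ± 0.052). The protective Bcl2 rose by 0.57 ± 0.030 and the death-promoting Bmf by 1.52 ± 0.10, and Bcl2a1b, a protective gene with near-identical copies, fell (-0.56 ± 0.037). For Bcl2l11 every genipin+NAC library was above every vehicle library. Of 20 p53 targets 9 rose and 8 fell, with Btg2 at 0.76 ± 0.036 and Aen at -0.62 ± 0.035. Of 15 genes of the IL-2 receptor and STAT5 response 5 rose and 5 fell, and of 14 integrin and adhesion genes 8 rose and 4 fell, with Itgb3 at 1.08 ± 0.031, Itga4 at 0.74 ± 0.049 and Icam1 at -0.47 ± 0.042.

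**Figure D5:**
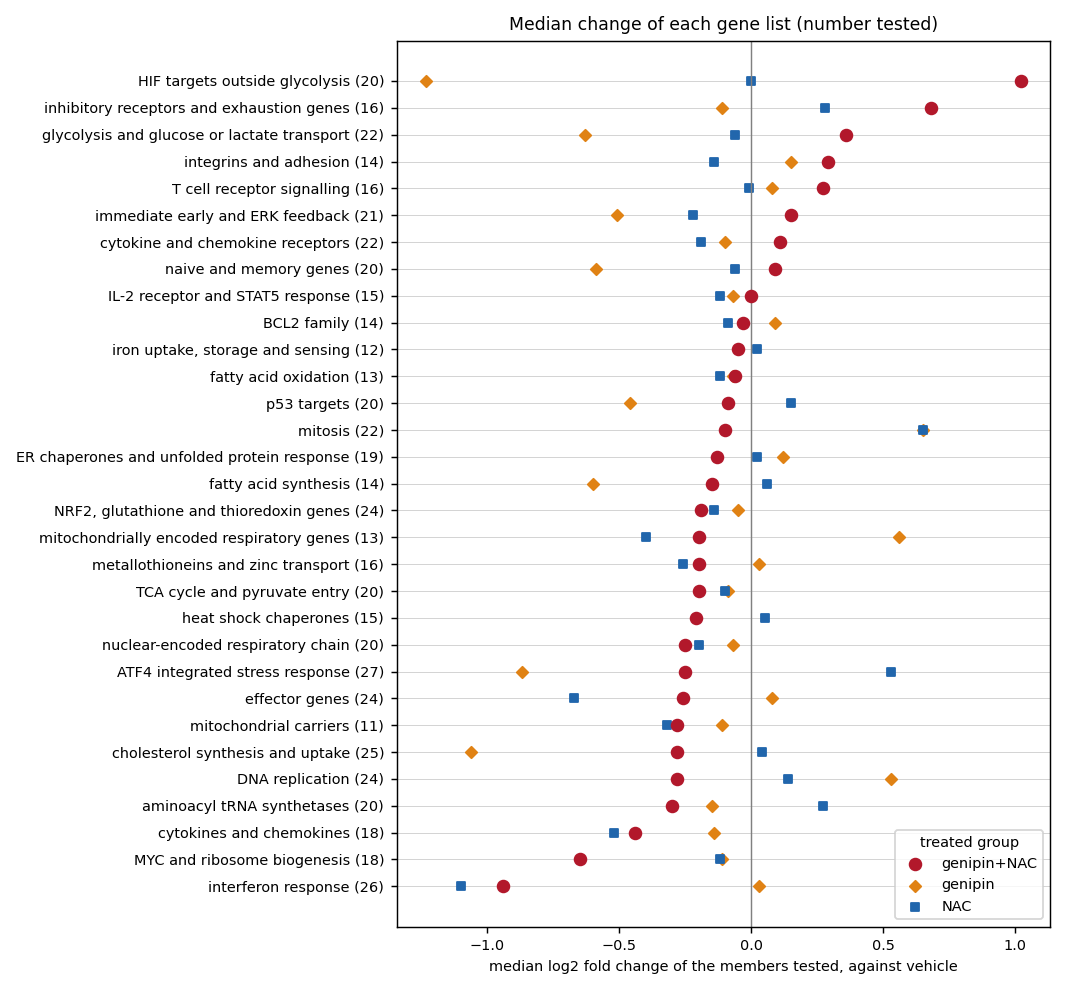
Median log2 fold change against vehicle (x axis) of the tested members of each gene list (y axis, number tested in parentheses) with genipin+NAC, with genipin and with NAC; the 3 comparisons share the vehicle libraries. Lists of cell type markers are not drawn, and some had higher medians, such as 1.55 for the 4 B cell markers tested. Among the lists drawn, with both compounds the HIF list lies furthest right at 1.02 and the interferon list furthest left at -0.94.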

How the data were processed

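RNA from 12 libraries was sequenced as paired reads of 150 bases after removal of ribosomal RNA with a stranded kit, per the labels' protocols. Per the submitters' processing notes, bcl2fastq, cutadapt 1.18, STAR 2.7.0f, RSEM 1.3.1 and mm10 were used, with no role given for each. Per the file headers, the authors deposited expected counts and TPM (length-scaled abundance) per gene; all IDs and symbols equal GENCODE mouse release 21, which supplied the coordinates. TPM served as a check of the levels only. No row lacked a gene name.

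Expected counts were rounded, genes with low counts removed (filterByExpr), TMM factors computed, and 1 mean per group fitted to all 12 libraries with the quasi-likelihood F test of edgeR 4.0.16 (R 4.3.3), with Benjamini-Hochberg adjustment over 13636 genes. Genes with adjusted p under 0.05 were called. CPM were computed from the counts and scaled totals; the SE of a log2 fold change is its size over the square root of F. The biological coefficient of variation common to all genes was 0.0393. The procedure was tested on simulated data.

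The lists, motifs and members were chosen with earlier results of these data known. Named genes were Ucp2, the 15 largest rises and falls and the 5 furthest beyond all other groups in each direction (adjusted p under 0.05, at least 5 CPM, no overlap, no predicted genes), and up to 4 members of each list by smallest p plus the strongest against the list's direction. Some genes that these rules and the lists hold are not reported here. Other members (Bach2, Bcl6, Bnip3, Bnip3l, Gapdh, Gzmb, Higd1a, Ifng, Il6st, Irf4, Ldha, Mki67, Myc, P4ha1, P4ha2, Pdk1, Pgk1, Pkm, Polr1b, Prf1, Slc2a1, Tbx21, Tigit, Vegfa, Tox and Hif1a) were chosen after their values were seen. Promoters were RefSeq windows (GRCm38.p6), matched by symbol. DESeq2 1.42.0 and limma 3.58.1 gave alternatives, and figures used matplotlib 3.10.9 under Python 3.11.15. Floors cover counting error only, and the SE reflects only how far these libraries spread, which may be technical.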

Additional observations from a re-analysis of the deposited data

How the results depend on the processing

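Against a 1.5-fold change (glmTreat), fewer genes passed than in a test against no change: 1105 against vehicle (719 higher, 386 lower), 2589 against genipin (1670 higher, 919 lower) and 832 against NAC (464 higher, 368 lower). Leaving out 1 library at a time gave 7162 to 7701 genes against vehicle; without genipin+NAC replicate 1 the number was 7701. The other settings (RLE factors, no factors, DESeq2, limma-voom, 2 other filters, only the compared groups, adjusted p under 0.01) gave 6377 to 7856 genes against vehicle, and no named gene changed direction. Without normalization factors the median of all genes moved by 0.041 and 4400 genes were higher and 3456 lower. Apart from the test for 1.5-fold, the named genes that lost a call against vehicle in some setting were Acss2, Cd14 and Sars. Replicate numbers do not pair the libraries by the labels: same-numbered libraries correlated between -0.0751 and 0.0437 once group means were removed, and with the replicate number as a block 7768 genes were called, 3863 higher and 3905 lower. Depth limits genes with few counts, such as Ccl9, Ermn, Hspb1 and Tox; a count of 0 allows up to 3 counts in a library, for counting error only.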
